A study of Ovis aries with 15 samples.

Results

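The genes of the PPAR signalling map of the KEGG pathway database were followed in RNA from sheep kidney. Of the 25592 genes in the deposited expression table, 102 carried this map in their annotation. Left out by name were 9 of them (APOA1, APOA2, APOC3, PCK1, SCD, ADIPOQ, PLIN1, FABP4 and LPL), which left 93 members. Genes with a CYP symbol and HMGCS1 were also to be left out, but none of them carried the map. The rule reads the annotation and gene names and sets no threshold on a measured value. The annotation is broad, since 24 members had only a LOC number for a name and several, such as ZCCHC17, STEEP1 and SPATA9, were described in the file as proteins outside lipid metabolism. Kidney RNA was sequenced from male crossbred Dorper and Small-tailed Han sheep aged 4 months after 21 days on the diets, with 5 libraries in each of 3 groups. The CON group ate the basal diet. The AFB1 group ate the same diet with 500 µg of aflatoxin B1, a mould toxin, per kg of dry matter. The AFB1_CUR group received that dose of AFB1 together with 800 mg of curcumin per kg of dry matter. No group received curcumin alone, so each comparison that involves curcumin was made in the presence of AFB1. The labels do not say whether the libraries of a group came from separate sheep. By the methods the sheep shared pens, and p values here measure the spread between libraries, which may be technical in part.

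PPARs are nuclear receptors that are switched on by fatty acids and their derivatives and that bind DNA paired with a retinoid X receptor. Their target genes take up, bind, activate and oxidize fatty acids, with PPARA best known for mitochondrial and peroxisomal oxidation and PPARG for fat storage. The proximal tubule of the kidney reabsorbs most of the filtrate and covers much of its energy need by oxidizing fatty acids.

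The libraries held 50255295 to 68747047 counts. The library labelled AFB1 replicate 1 stood apart from the rest. Its mean log2(FPKM + 1) over 8 hepatocyte markers, such as albumin and transferrin, was 10.79, against 1.41 to 2.88 in the other 14, and over 8 proximal tubule markers it was 1.15, against 6.31 to 8.02. Its kidney label thus went against its markers, so its values are given apart and the comparisons used the other 14 libraries, 5 of CON, 4 of AFB1 and 5 of AFB1_CUR. Among these 14, the proximal tubule marker mean was lowest in AFB1_CUR replicate 2 and highest in CON replicate 5. The mean of 4 macrophage markers ran the other way, from 1.42 in CON replicate 5 to 3.88 in AFB1_CUR replicate 2. The mean of 3 adipocyte markers was 0.0875 to 0.392, near the floor. In whole kidney tissue, fewer cells of a type and less RNA per cell cannot be told apart.

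Of the 93 members, 61 passed the filter of at least 1 FPKM in at least 4 of the 14 libraries, and 27 of the other 32 stayed under 1 FPKM in all 14. FPKM, the fragment count scaled by transcript length and library size, lets levels be set side by side between genes. By the median FPKM in CON, 6 members exceeded 100, 27 lay between 10 and 100, 27 between 1 and 10 and 33 under 1. Among these were ACAA1 at 521, EHHADH at 218, LOC114114832 at 146, PCK2 at 144 and LOC101117285 at 115. Of these, ACAA1, EHHADH and LOC101117285 serve peroxisomal oxidation, the role with the largest sum of CON medians (1026 FPKM over 9 members, of which 8 were tested).

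**Figure D1:**
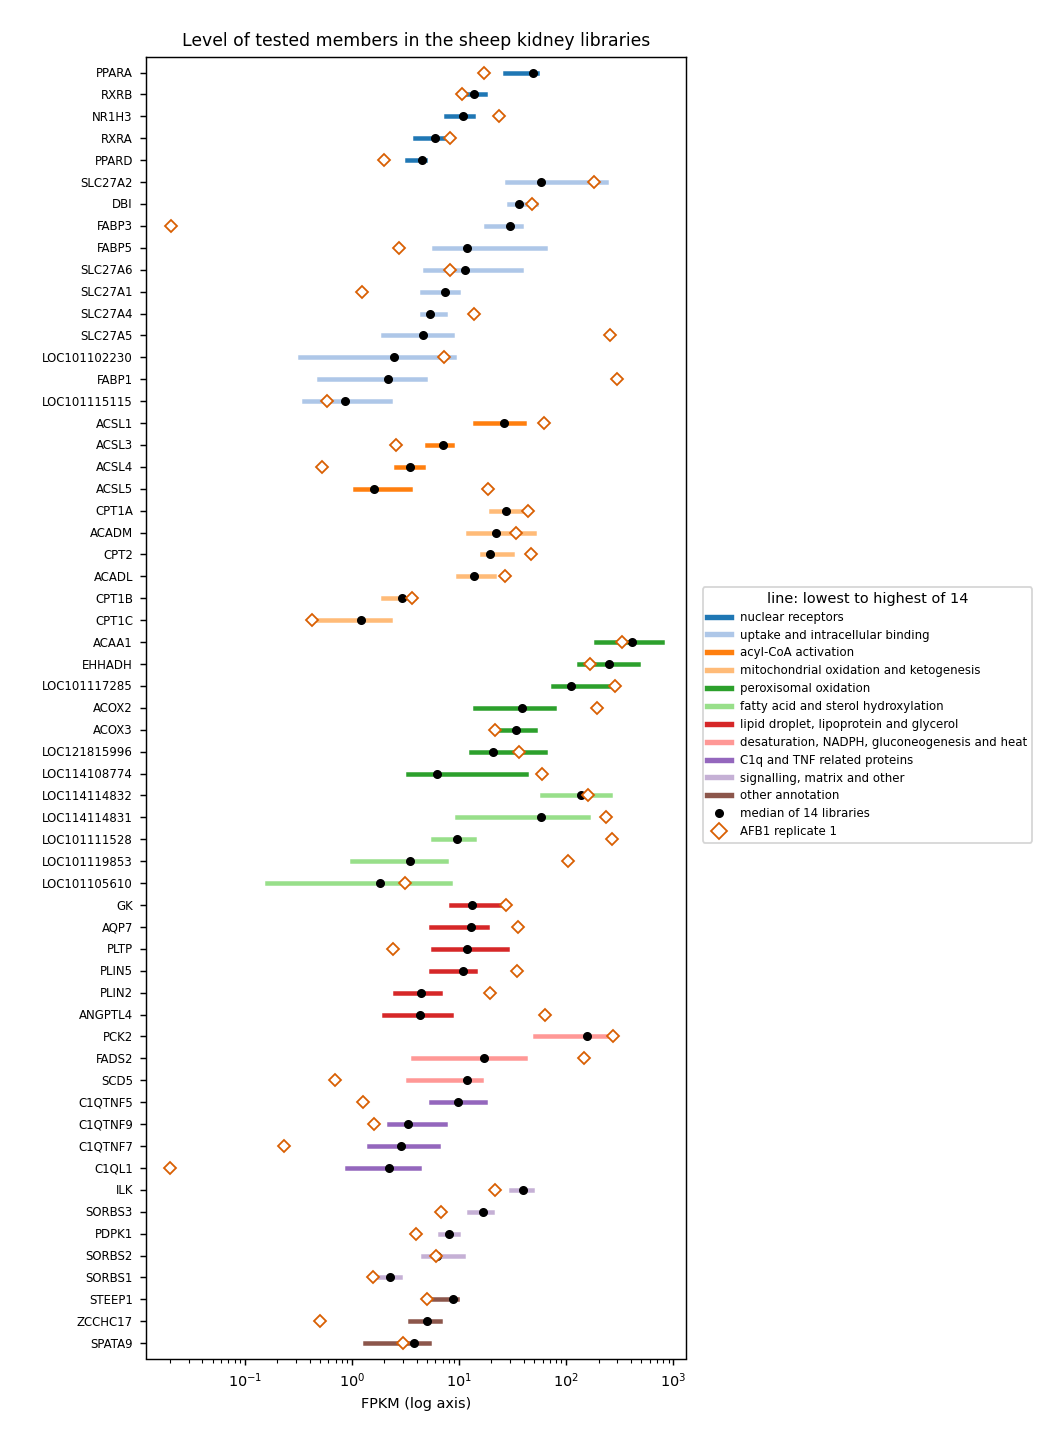
FPKM on a log axis for 59 of the 61 members that passed the filter, ordered by role and by level. The line runs from the lowest to the highest of the 14 libraries, the black point is their median and the open diamond is AFB1 replicate 1 (C1QL1, at 0 there, is drawn at the left edge). Peroxisomal genes such as ACAA1 and EHHADH lie furthest to the right, while the diamonds of FABP1, SLC27A5 and LOC101119853 lie far above their lines and that of FABP3 far below.

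Among the receptors, PPARA was the leading one in kidney, on chromosome 3 from 222351747 to 222422559 in the coordinates of the file. In what follows, values are listed as FPKM per library in the order of the replicate numbers, 1 to 5 for CON and AFB1_CUR and 2 to 5 for AFB1. PPARA was at 41.6, 48.6, 49.2, 52.9 and 53.6 in CON, 28.1, 41.9, 34.2 and 53.7 in AFB1 and 52.4, 26.6, 50.2, 52.0 and 34.9 in AFB1_CUR. PPARD, the broadly expressed receptor, was at 4.66, 4.71, 4.84, 3.33 and 3.23 in CON, 4.57, 4.59, 4.45 and 4.26 in AFB1 and 3.32, 4.82, 4.58, 4.44 and 4.19 in AFB1_CUR. PPARA exceeded PPARD at least 5.52-fold in every one of the 14 libraries, and the lowest PPARA values were those of AFB1_CUR replicate 2 and AFB1 replicate 2. PPARG, the storage receptor, stayed far below both, at 0.133 to 0.184 FPKM in CON, 0.131 to 0.505 in AFB1 and 0.0791 to 0.283 in AFB1_CUR, with its highest value in AFB1 replicate 2.

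RXRA, RXRB and RXRG are the retinoid X receptors that pair with the PPARs. RXRB was at 13.2, 14.3, 13.8, 13.6 and 13.98 in CON, 13.8, 14.2, 13.7 and 10.8 in AFB1 and 10.1, 17.5, 13.97, 12.7 and 15.3 in AFB1_CUR. RXRA was at 6.90, 6.95, 7.48, 6.52 and 5.29 in CON, 3.82, 5.70, 4.92 and 6.12 in AFB1 and 6.39, 5.02, 5.42, 6.39 and 4.98 in AFB1_CUR. RXRB was above RXRA in every library, and RXRG, on 0 to 12 counts per library, was practically unread. NR1H3, the liver X receptor alpha that answers to oxysterols, ranged from 7.49 to 13.6 FPKM in the 14 libraries. In CON the order of the levels was PPARA, RXRB, NR1H3, RXRA, PPARD, PPARG and RXRG, with overlap between neighbours only for RXRB and NR1H3. Strand use in the counting is not given in the sources used here, and PPARA overlaps 2 much weaker genes on the opposite strand.

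Of the uptake genes, SLC27A2, a very long chain acyl-CoA synthetase of peroxisomes and the endoplasmic reticulum, had the highest level. SLC27A2 was at 60.5, 56.3, 32.3, 88.3 and 234 in CON, 34.3, 52.2, 34.2 and 88.9 in AFB1 and 98.8, 27.8, 48.9, 127 and 88.2 in AFB1_CUR. CON replicate 5 was more than 2-fold above every other CON library, so the CON mean of 94.2 ± 80.5 (SD, n = 5) rested largely on it. SLC27A6 was next at a CON median of 13.1, followed by SLC27A1 at 7.92, SLC27A5 at 5.13 and SLC27A4 at 4.91. FABP3, the heart type fatty acid binding protein, had the highest level of the binding proteins of this family and varied little in CON. FABP3 was at 35.7, 33.6, 37.9, 27.9 and 28.5 in CON, 26.8, 24.3, 37.4 and 31.3 in AFB1 and 20.1, 17.8, 37.7, 28.4 and 35.8 in AFB1_CUR. FABP5, the epidermal type, was lower in most libraries and far more variable. FABP5 was at 13.1, 10.4, 20.4, 5.85 and 6.98 in CON, 63.8, 10.98, 19.9 and 6.38 in AFB1 and 9.66, 28.9, 12.4, 9.87 and 20.4 in AFB1_CUR. AFB1 replicate 2 stood more than 2-fold above every other library for FABP5, and the groups overlapped. FABP1, the liver type, was at 0.493 to 4.84 FPKM in the 14 libraries and FABP2, the intestinal type, had a CON median of 0. DBI, which binds acyl-CoA, had a CON median of 36.0. The scavenger receptor CD36 is represented by 3 neighbouring genes on chromosome 4, LOC101102230, LOC101114861 and LOC101115115, described as platelet glycoprotein 4 or like it. LOC101102230 was at 2.44, 2.28, 2.35, 0.327 and 0.936 in CON, 8.47, 3.45, 2.96 and 0.598 in AFB1 and 3.25, 8.88, 2.43, 2.497 and 3.27 in AFB1_CUR. CON replicates 4 and 5 and AFB1 replicate 5 stayed under 1 FPKM, while AFB1 replicate 2 and AFB1_CUR replicate 2 exceeded 8. LOC101115115 had a CON median of 0.841, and LOC101114861 was at or under 0.356 FPKM in all 14. Neighbouring genes with the same description may share reads, which was not examined here, so the split between them is uncertain.

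Activation to acyl-CoA was led by ACSL1, the long-chain enzyme linked to oxidation, at a CON median of 28.2 FPKM, followed by ACSL3 at 6.38, ACSL4 at 2.66 and ACSL5 at 1.53. Entry into mitochondria was represented by CPT1A, the liver and kidney form of the carnitine shuttle enzyme, at 29.9, against 2.89 for the muscle form CPT1B and 1.19 for CPT1C. CPT1A was within 19.9 to 38.1 FPKM in the 14 libraries. The inner enzyme CPT2 had a CON median of 18.5, and the acyl-CoA dehydrogenases ACADM and ACADL, which oxidize medium and long chains, had 20.6 and 13.6.

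Peroxisomal oxidation held the highest levels. ACAA1, the thiolase of the last step, was at 521, 443, 307, 631 and 779 in CON, 189, 341, 323 and 495 in AFB1 and 477, 188, 406, 415 and 369.7 in AFB1_CUR. EHHADH, the bifunctional enzyme of the middle steps, was at 218, 217, 212, 358 and 379.5 in CON, 134, 249, 247 and 471 in AFB1 and 412, 132, 344, 377 and 252 in AFB1_CUR. ACAA1 varied 4.14-fold between the lowest and the highest of the 14 libraries, with AFB1_CUR replicate 2 and AFB1 replicate 2 lowest and CON replicate 5 highest. The acyl-CoA oxidases ACOX3 and ACOX2, for branched chains and bile acid intermediates, had CON medians of 34.99 and 31.4. LOC101117285, on chromosome 1 from 27413915 to 27510118 and described as non-specific lipid-transfer protein, the product of SCP2, was at 82.6, 90.9, 115, 157 and 191 in CON, 78.0, 103, 106 and 267 in AFB1 and 166, 75.8, 129, 128 and 101 in AFB1_CUR. AFB1 replicate 5 was more than 2-fold above the other AFB1 libraries. LOC114108774 and LOC121815996 carry the same description but span only 1261 and 1408 bases, on chromosomes 13 and 6. LOC114108774 was at 25.8, 23.9, 5.67, 5.88 and 42.2 in CON, 3.81, 4.42, 6.54 and 34.9 in AFB1 and 33.7, 3.34, 27.2, 5.51 and 4.38 in AFB1_CUR. Its values formed a low set of 3.34 to 6.54 FPKM and a high set of 23.9 to 42.2, with both sets found in every group, and since reads may be shared with LOC101117285 its level is uncertain.

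Hydroxylation of fatty acids and sterols was represented by P450 genes without a CYP symbol. LOC114114832, a P450 4A gene described as taurochenodeoxycholic 6 alpha-hydroxylase-like, was at 126, 135, 146, 154 and 256 in CON, 58.9, 85.6, 79.7 and 253 in AFB1 and 141, 88.1, 164, 114 and 179.7 in AFB1_CUR. CON replicate 5 and AFB1 replicate 5 were high together. LOC114114831, its neighbour on chromosome 1 with the same description, was at 61.2, 59.3, 24.8, 36.1 and 86.8 in CON, 9.58, 80.6, 28.2 and 115 in AFB1 and 159.7, 56.1, 28.4, 121 and 33.9 in AFB1_CUR. LOC101105610, a further P450 4A copy in the same stretch, ranged from 0.160 to 8.12 FPKM. LOC101111528, the sterol 26-hydroxylase that oxidizes cholesterol in mitochondria, was between 5.68 and 13.8 FPKM, and LOC101119853, the sterol 12-alpha-hydroxylase of bile acid synthesis, between 0.990 and 7.51. LOC101119853 lies inside a stretch that ACKR2 also covers on the opposite strand, at a median of 2309 counts, so reads of the 2 genes may be mixed.

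Of the remaining roles, lipid droplet, lipoprotein and glycerol genes were led by AQP7, the glycerol channel, at a CON median of 15.0 FPKM, with GK, the glycerol kinase, at 13.8, the droplet proteins PLIN5 and PLIN2 at 12.5 and 4.004, PLTP, the phospholipid transfer protein, at 10.02 and the lipase inhibitor ANGPTL4 at 2.93. PCK2, the mitochondrial form of the gluconeogenic enzyme PEPCK, was at 144, 87.4, 88.8, 270.3 and 235 in CON, 50.8, 132, 91.2 and 205 in AFB1 and 202, 89.5, 168, 168 and 167 in AFB1_CUR. The desaturases FADS2 and SCD5 had CON medians of 17.4 and 12.5. UCP1, the heat-making uncoupler, ACSL6, PLIN4, ACOXL and APOA5 were each under 0.1 FPKM at the CON median.

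Members differed more between the 14 libraries than genes did in general. The median SD of log2(FPKM + 1) was 0.405 over the 61 tested members and 0.236 over all 13394 tested genes, a description without a test. This scale shrinks the spread of weak genes, and levels were not matched between members and all genes. The most variable members were LOC114108774 at 1.28, LOC114114831 at 1.07, FABP5 at 0.881, SLC27A2 at 0.856 and LOC101105610 at 0.834.

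In AFB1 replicate 1 other members led in some of the families. This is a single library, and no test was made. APOA5, an apolipoprotein of the liver, was at 678 FPKM on 95111 counts, against 0 to 48 counts in the 14 others. FABP1 stood at 295 FPKM, against a median of 2.15, and FABP3 at 0.0205, against a median of 29.9. SLC27A5, the bile acyl-CoA synthetase of liver, was at 255, against a median of 4.57, while SLC27A1 was at 1.23, against 7.42. The bile acid genes LOC101111528 and LOC101119853 were at 270 and 104 FPKM, against medians of 9.58 and 3.49. Among the CD36-like genes it was LOC101114861 that stood out, at 62.1 FPKM against a median of 0.0697. SCD5, C1QTNF5 and ZCCHC17 were low, at 0.689, 1.26 and 0.499. ZCCHC17 overlaps FABP3 on the opposite strand, so reads of the pair may be mixed. PPARA was at 17.1 and PPARD at 1.98, both below all 14 other libraries, whereas RXRA at 8.27 and NR1H3 at 23.4 were above them. The peroxisomal genes ACAA1 and EHHADH, at 331 and 166, were within the range of the 14. Of the 61 tested members 24 (39.3%) were above that range and 21 (34.4%) below it, where all tested genes gave 9.62% above and 61.3% below.

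The comparison of AFB1 with CON asks which genes differed in kidneys of toxin-fed sheep. By the screening conditions of the study, an unadjusted p under 0.05 with a fold change over 1.5, the quasi-likelihood fit of edgeR called 238 of 13394 genes (1.78%) and 2 of the 61 members (3.28%), C1QTNF9 and LOC101119853. Both were lower in AFB1, where 1.1% of all genes were called lower. After Benjamini-Hochberg adjustment it called 0 genes, members included, with 670 genes (5.0%) and 4 members (6.56%) at an unadjusted p under 0.05. DESeq2 on the same counts called 19 genes after adjustment, of which 0 were members. The member estimates were split evenly, 30 higher and 31 lower in AFB1, with a median log2 fold change of -0.01 against 0.02 over all genes.

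C1QTNF9 encodes a secreted relative of adiponectin. C1QTNF9 was at 3.43, 7.38, 4.43, 4.14 and 2.35 in CON, 2.65, 2.19, 3.19 and 2.65 in AFB1 and 3.09, 6.44, 3.82, 4.08 and 3.05 in AFB1_CUR. The AFB1 values lay together near the bottom of the CON range, and CON replicate 5 lay among them. The mean was 4.35 ± 1.87 in CON (SD, n = 5) and 2.67 ± 0.409 in AFB1 (SD, n = 4), a log2 fold change of -0.68 (SE 0.29, edgeR, Benjamini-Hochberg adjusted p = 0.957). Without CON replicate 2 the log2 fold change was -0.45, and the screening call was also lost without CON replicate 3, AFB1 replicate 2 or AFB1 replicate 3 (log2 fold changes of -0.67, -0.64 and -0.58). C1QTNF9 was not called by limma either, at -0.48 (unadjusted p = 0.0555) with a pseudocount of 1 and -0.60 (unadjusted p = 0.0520) with 0.1. LOC101119853 was at 3.69, 5.01, 4.36, 4.34 and 7.51 in CON, 2.90, 1.85, 2.17 and 3.92 in AFB1 and 2.98, 0.990, 4.52, 3.29 and 2.03 in AFB1_CUR. In AFB1 only replicate 5 reached into the CON range. The mean was 4.98 ± 1.49 in CON (SD, n = 5) and 2.71 ± 0.922 in AFB1 (SD, n = 4), a log2 fold change of -0.86 (SE 0.40, edgeR, adjusted p = 0.957). The screening call of LOC101119853 was lost in 10 of the 14 fits that left out 1 library, with log2 fold changes of -0.66 without CON replicate 5 and -0.70 without AFB1 replicate 3 as the smallest. It was lost as well with DESeq2's size factors in edgeR (unadjusted p = 0.0513). The level of LOC101119853 also moved with the proximal tubule marker mean over the 14 libraries (Pearson r = 0.675, adjusted permutation p = 0.0359). The rank correlation did not pass (Spearman's rho 0.538, adjusted permutation p = 0.143). Without the 2 libraries farthest from the median marker mean r was 0.368, so the relation rests on those. The summed FPKM of the 8 markers was 1423 to 2583 in CON, 999 to 2586 in AFB1 and 939 to 2189 in AFB1_CUR, and their part in the result was not tested.

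The smallest unadjusted p among the members was that of ACSL4, an activating enzyme that prefers arachidonic acid, at 0.00852 in edgeR's model. ACSL4 was at 2.62, 3.44, 2.66, 2.57 and 2.79 in CON, 4.62, 3.83, 3.52 and 2.59 in AFB1 and 3.71, 3.997, 2.99, 3.75 and 3.63 in AFB1_CUR. In AFB1 3 of 4 libraries exceeded every CON library and replicate 5 lay among the lowest. The log2 fold change was 0.35 (SE 0.12), under the fold required for a call. ACSL4 had a Pearson r of -0.604 with the proximal tubule marker mean over the 14 libraries (adjusted permutation p = 0.0773), whose part was not tested. ACSL3, its relative on the endoplasmic reticulum and lipid droplets, had a log2 fold change of 0.22 (SE 0.10) and was likewise below that fold. The highest estimates were not called by edgeR. FABP5 had a log2 fold change of 1.09 (SE 0.55) and LOC101102230 of 1.16 (SE 0.63), and both had their highest AFB1 value in replicate 2. With AFB1 replicate 2 left out, FABP5 had a log2 fold change of 0.15 and LOC101102230 one of 0.49. DESeq2's screening calls held 287 of the 13394 genes and 3 members, with FABP5 as higher in AFB1 beside C1QTNF9 and LOC101119853. Leaving out AFB1 replicate 5 gave 8 called members in place of 2, with 470 of 13394 genes called in that fit in place of 238. The 8 were C1QTNF9, LOC101119853, ACAA1, ACOX3, LOC114108774 and LOC114114832 as lower and FABP5 and LOC101102230 as higher in AFB1. PPARA differed by a log2 fold change of -0.30 (SE 0.26), PPARD by 0.10 (SE 0.13) and RXRA by -0.36 (SE 0.18), none of them called. PLIN5, which ties lipid droplets to mitochondria, was the 1 member (1.64%) without overlap between the groups, at 11.1 to 14.2 FPKM in CON and 7.52 to 10.9 in AFB1, where 1.02% of all genes were lower without overlap. Its log2 fold change of -0.44 (SE 0.22) did not pass the test. ACSL3, LOC101102230, ACOX3 and PLIN5 were singled out after their values were seen.

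**Figure D2:**
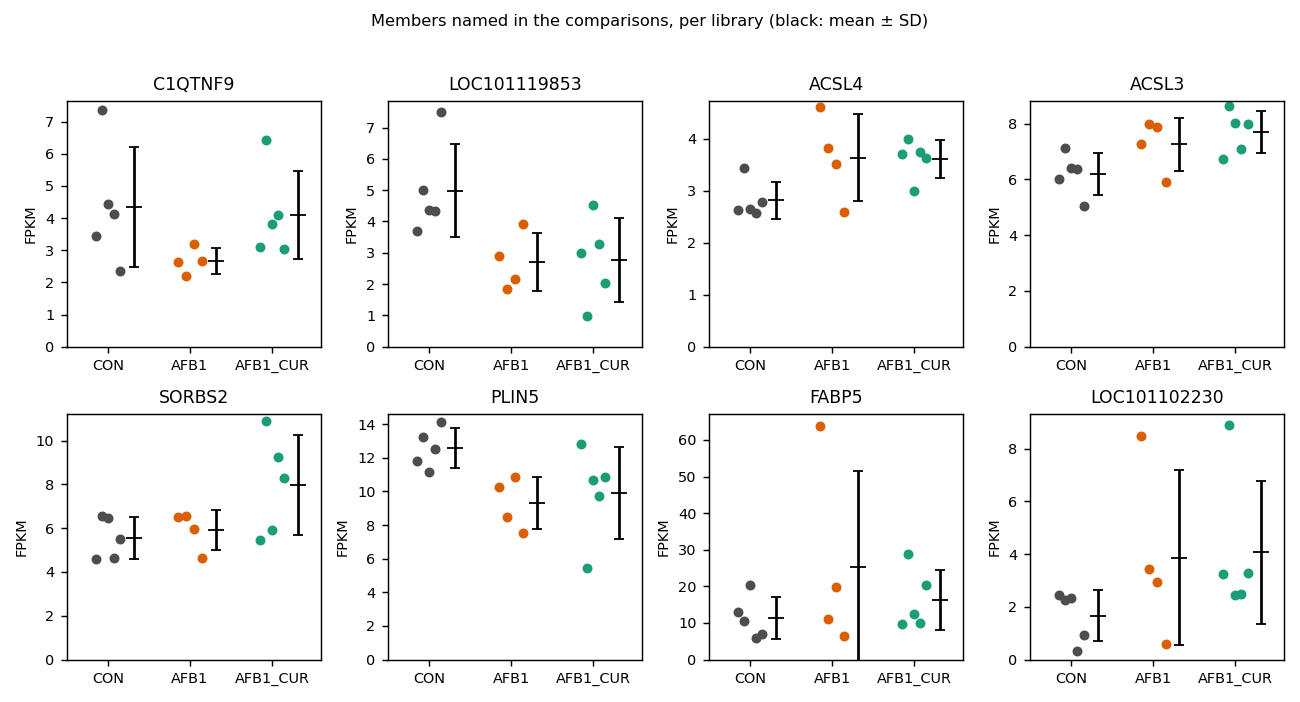
FPKM per library for 8 members in CON (5 libraries), AFB1 (4, without replicate 1) and AFB1_CUR (5), with the mean and SD in black (the lower SD bar of FABP5 in AFB1 is cut at 0). C1QTNF9 and LOC101119853 were called lower in AFB1 than in CON, with overlapping points, and single high libraries, such as AFB1 replicate 2 at 63.8 for FABP5, set the means of FABP5 and LOC101102230.

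The comparison of AFB1_CUR with AFB1 asks what curcumin changed in toxin-fed sheep. The screening conditions called 133 of 13394 genes (0.993%) and 0 of the 61 members. At an unadjusted p under 0.05 edgeR's quasi-likelihood test listed 2 members (3.28%), where all genes gave 311 (2.32%), and after Benjamini-Hochberg adjustment 0 genes. DESeq2 called 3 genes after adjustment, 0 of them members, and its screening calls held 165 of the 13394 genes and 2 members, LOC101105610 and SLC27A5. One of the 2 members at an unadjusted p under 0.05 in edgeR's model was SORBS2, an adaptor of the cytoskeleton, at 4.62 to 6.57 FPKM in AFB1 and 5.46 to 10.9 in AFB1_CUR, a log2 fold change of 0.36 (SE 0.17). The estimate of SLC27A5 was the highest, at 0.60 (SE 0.29), and that of LOC101105610 the lowest, at -1.45 (SE 0.76). LOC101105610 was at 3.69, 1.74, 1.28, 5.11 and 2.28 in CON, 1.92, 8.12, 1.56 and 5.64 in AFB1 and 0.160, 1.74, 0.480, 4.36 and 1.58 in AFB1_CUR. AFB1_CUR replicates 1 and 3 were lowest, and the other 3 AFB1_CUR libraries lay within the AFB1 range. SLC27A5 was at 4.58, 5.25, 5.21, 3.79 and 5.13 in CON, 3.23, 4.57, 3.20 and 1.94 in AFB1 and 3.12, 6.14, 8.59, 4.69 and 3.01 in AFB1_CUR. SLC27A5 passed the screening when AFB1 replicate 3, AFB1_CUR replicate 1 or AFB1_CUR replicate 5 was left out, with log2 fold changes of 0.80, 0.72 and 0.75, and LOC101105610 when AFB1_CUR replicate 4 was left out, at -2.27. Without AFB1 replicate 5, 3 other members passed it, CPT1C, LOC114114832 and SCD5, in a fit that called 234 of 13394 genes in place of 133. PPARA differed by 0.06 (SE 0.26) and PPARD by -0.14 (SE 0.13). The median log2 fold change of the members was -0.00, as it was over all genes.

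The comparison of AFB1_CUR with CON asks how the combined diet differed from the basal one. It shares its CON libraries with the comparison of AFB1 with CON. The screening conditions called 235 of 13394 genes (1.75%) and 1 of the 61 members (1.64%), LOC101119853, which was lower in AFB1_CUR, where 0.635% of all genes were called lower. Its mean was 4.98 ± 1.49 in CON and 2.76 ± 1.33 in AFB1_CUR (SD, n = 5 each), and the log2 fold change was -0.89 (SE 0.37, edgeR, Benjamini-Hochberg adjusted p = 0.816). AFB1_CUR replicate 3 lay within the CON range and the others lay below it. Without CON replicate 5 the log2 fold change was -0.69, without AFB1_CUR replicate 5 it was -0.79, and the screening call was lost in both. At an unadjusted p under 0.05 there were 5 members (8.2%), where all genes gave 747 (5.58%). They included SORBS2 at a log2 fold change of 0.44 (SE 0.16), ACSL4 at 0.29 (SE 0.11), ACSL3 at 0.24 (SE 0.10) and LOC101119853. After adjustment edgeR called 0 genes and DESeq2 called 2, of which 0 were members. SORBS2 was at 4.59, 6.54, 6.47, 4.63 and 5.48 in CON, 6.53, 6.57, 5.96 and 4.62 in AFB1 and 5.46, 10.9, 5.93, 9.27 and 8.28 in AFB1_CUR. In AFB1_CUR 3 of 5 libraries exceeded every CON library. The members were higher in 22 cases and lower in 39, with a median log2 fold change of -0.09, against -0.00 over all genes. PPARA differed by -0.24 (SE 0.25) and PPARD by -0.03 (SE 0.12), and neither was called. Leaving out 1 library gave 0 to 3 called members, with 0 without CON replicate 5 or AFB1_CUR replicate 5, 2 without AFB1 replicate 5 or AFB1_CUR replicate 1 and 3 without AFB1_CUR replicate 4.

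**Figure D3:**
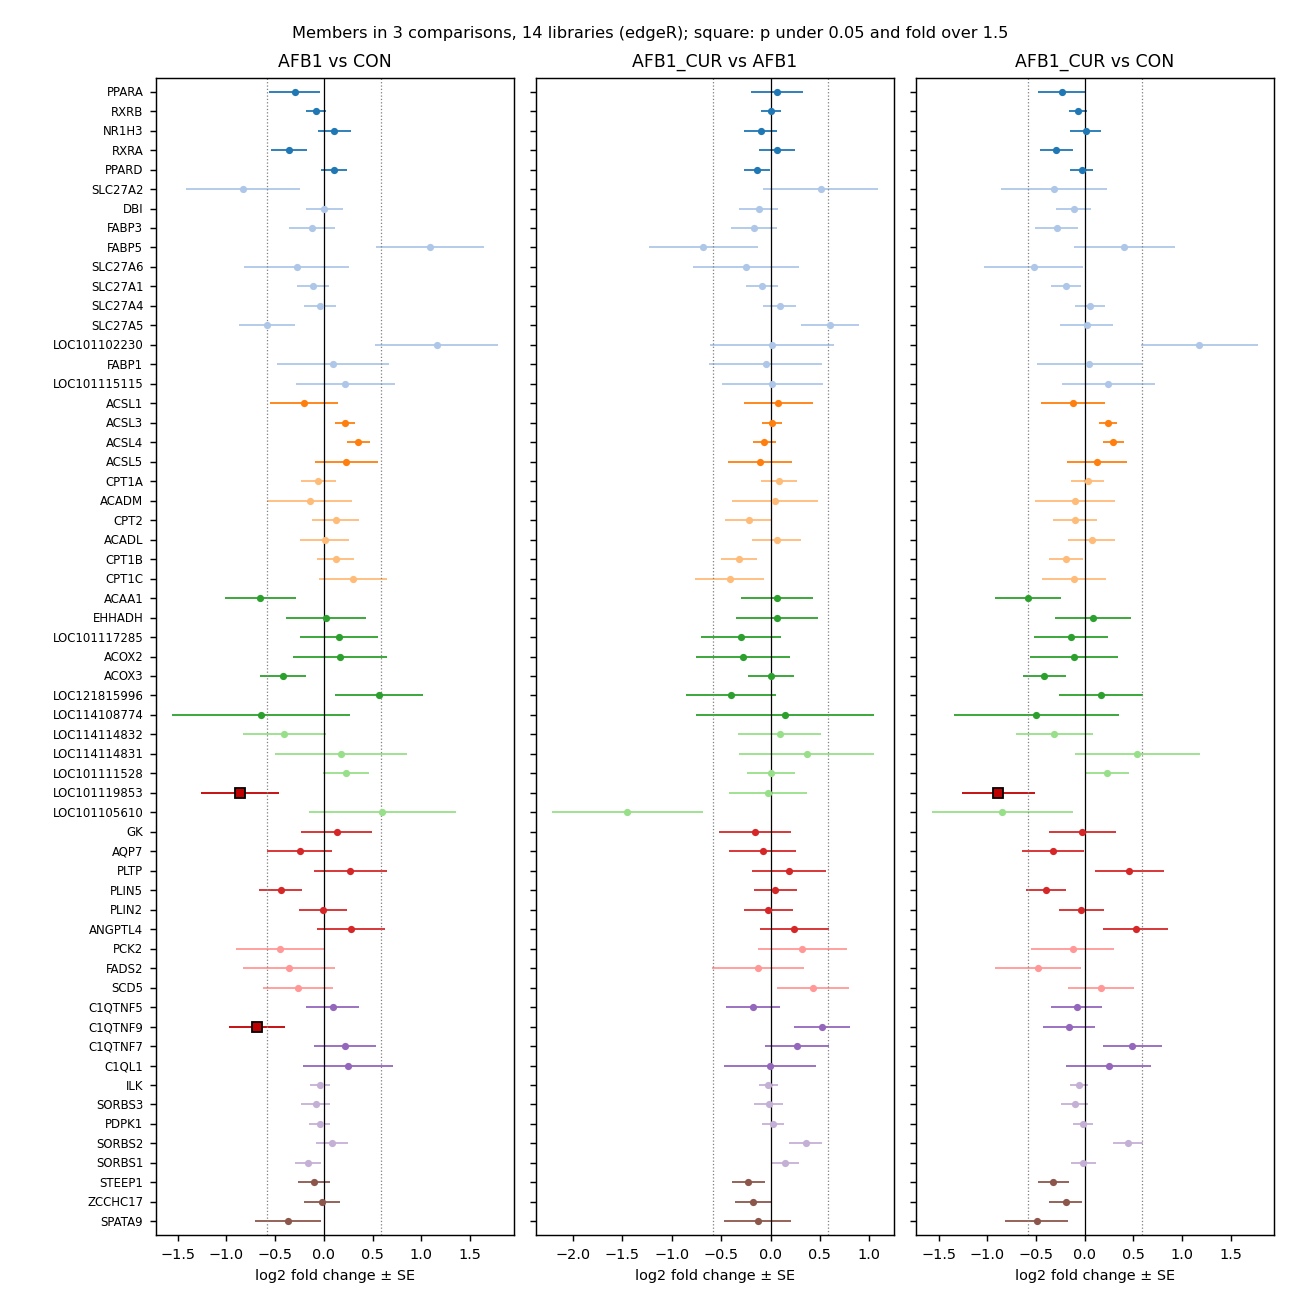
Log2 fold change with its SE for 59 of the 61 tested members in the 3 comparisons, coloured by role as in the plot of levels, with dotted lines at a fold of 1.5. Red squares mark members past the screening conditions, 2 in AFB1 against CON, 0 in AFB1_CUR against AFB1 and 1 in AFB1_CUR against CON, and most points lie between the dotted lines.

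By role, the 8 tested peroxisomal genes had a median log2 fold change of 0.04 in AFB1 against CON, -0.03 in AFB1_CUR against AFB1 and -0.13 in AFB1_CUR against CON. The 6 tested mitochondrial genes of the map gave 0.06, -0.09 and -0.10, and the 11 uptake and binding genes -0.04, -0.05 and 0.02. In none of these roles was a member called in these fits. Some smaller roles had medians farther from 0. In the same order, the 4 acyl-CoA activation genes gave 0.23, -0.02 and 0.18, and the 5 hydroxylation genes 0.17, 0.00 and -0.31. FADS2, SCD5 and PCK2, the 3 of their role, gave -0.36, 0.32 and -0.12. Acyl-CoA activation had 2 members at an unadjusted p under 0.05 in edgeR's model in each comparison with CON. Genes of fatty acid use outside the map were set beside them. Of 15 further mitochondrial oxidation genes, all tested, 0 were called and 0 had an unadjusted p under 0.05 in edgeR's model in any comparison, with medians of -0.03, -0.13 and -0.11. Of 12 co-regulators of the PPARs, 11 were tested and 0 called, with 0 at an unadjusted p under 0.05. Of 8 further PPAR target genes, 6 were tested, and G0S2, an inhibitor of the lipase that opens lipid droplets, was called lower in AFB1 than in CON. The mean FPKM of G0S2 was 28.0 in CON and 16.4 in AFB1, with a log2 fold change of -0.77 (SE 0.29, edgeR, Benjamini-Hochberg adjusted p = 0.957).

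Many members varied between libraries along with the proximal tubule markers. The measure was the mean log2(FPKM + 1) of 8 markers of this segment, such as LRP2 and SLC34A1, none of them a member, and the correlation was taken over the 14 libraries. Of the 61 members, 23 (37.7%) had a Pearson r above 0.5, where 10.7% of all tested genes did, and 17 (27.9%) had an r below -0.5, where 32.1% of all did. After Benjamini-Hochberg adjustment over all 13394 genes, 23 members had a permutation p under 0.05, a share of 37.7% against 25.4% of all genes. When the 2 libraries farthest from the median marker mean were left out, AFB1_CUR replicate 2 and CON replicate 5, the counts above 0.5 and below -0.5 were 20 and 13. With the group means removed, the 2 counts came to 43 together, against 40 before. With AFB1 replicate 1 added, r changed sign for 25 of these 40 members. All genes share the libraries and their scaling, so members are not independent of each other here.

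All 8 tested peroxisomal genes had an r above 0.5, with a median of 0.742, and 5 of them had an adjusted permutation p under 0.05. Without the 2 farthest libraries LOC121815996 gave 0.460 and LOC114108774 gave 0.493. ACAA1 had r = 0.884 (Spearman's rho 0.895, adjusted permutation p = 0.00163), and 0.795 without the 2 farthest libraries. EHHADH had r = 0.823 (rho 0.864, adjusted permutation p = 0.00465) and 0.764 without them. The copies of SCP2 are among these 8, and LOC101117285 gave r = 0.790. SLC27A2 had the highest r of all members, 0.898 (rho 0.921, adjusted permutation p = 0.00163), with 0.842 without the 2 libraries. SLC27A6 reached 0.861. In mitochondria ACADM had 0.892, ACADL 0.700 and CPT2 0.680, whereas CPT1A had 0.346 (adjusted permutation p = 0.376). AQP7, GK, PCK2 and LOC114114832 gave 0.851, 0.745, 0.844 and 0.836. PPARA itself had r = 0.796 (rho 0.877, adjusted permutation p = 0.00738), and 0.715 without the 2 libraries.

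The opposite direction was found in other members, several of them of the same roles. The share of members with an r below -0.5 (27.9%) was under that of all tested genes (32.1%). PPARD had r = -0.727 (rho -0.723, adjusted permutation p = 0.0182), and -0.606 without the 2 farthest libraries. CPT1C, the form best known from brain, had the lowest r of all members, -0.826 (rho -0.811, adjusted permutation p = 0.00492), and ACSL3 had -0.786. FABP5 gave -0.771 and LOC101102230 gave -0.778, and LOC101111528 gave -0.756. The macrophage marker mean was highest in the 2 libraries with the highest LOC101102230 and FABP5 values, AFB1_CUR replicate 2 (3.88) and AFB1 replicate 2 (3.58), and its part in these levels was not tested. The summed FPKM of these 4 of 5 chosen markers was 12.8 to 45.2 in CON, 16.5 to 83.9 in AFB1 and 22.5 to 117 in AFB1_CUR, and none was at 0 in all libraries. ACSL1 had r = 0.714, of the other sign than its relative ACSL3, and FABP3 had r = 0.0916 with an adjusted permutation p = 0.841. RXRA, at 0.438, and RXRB, at -0.601, did not reach an adjusted permutation p under 0.05 (0.235 and 0.0696).

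**Figure D4:**
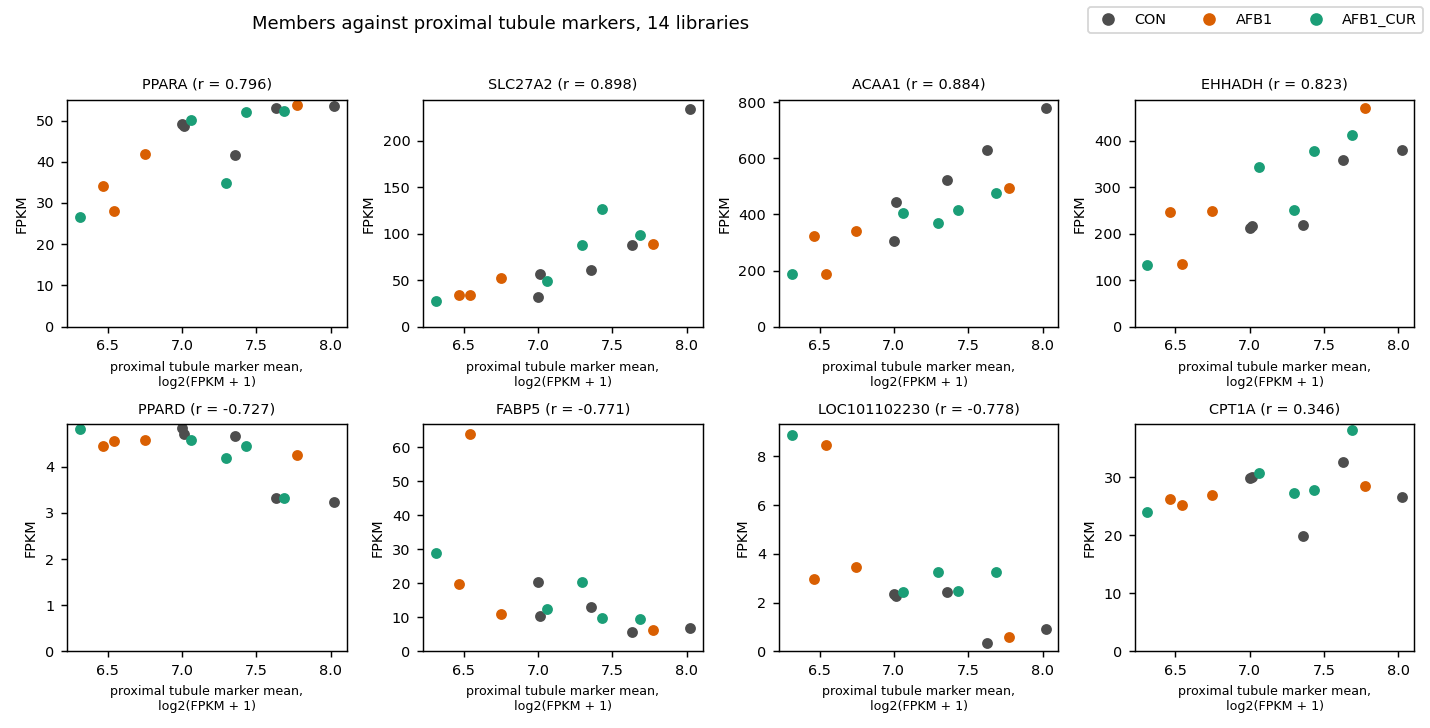
FPKM of 8 members against the proximal tubule marker mean in the 14 libraries, coloured by group, with Pearson r on log2(FPKM + 1) in each title. PPARA, SLC27A2, ACAA1 and EHHADH are higher to the right in libraries of all 3 groups, PPARD, FABP5 and LOC101102230 are lower there, and CPT1A shows r = 0.346.

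**Figure D5:**
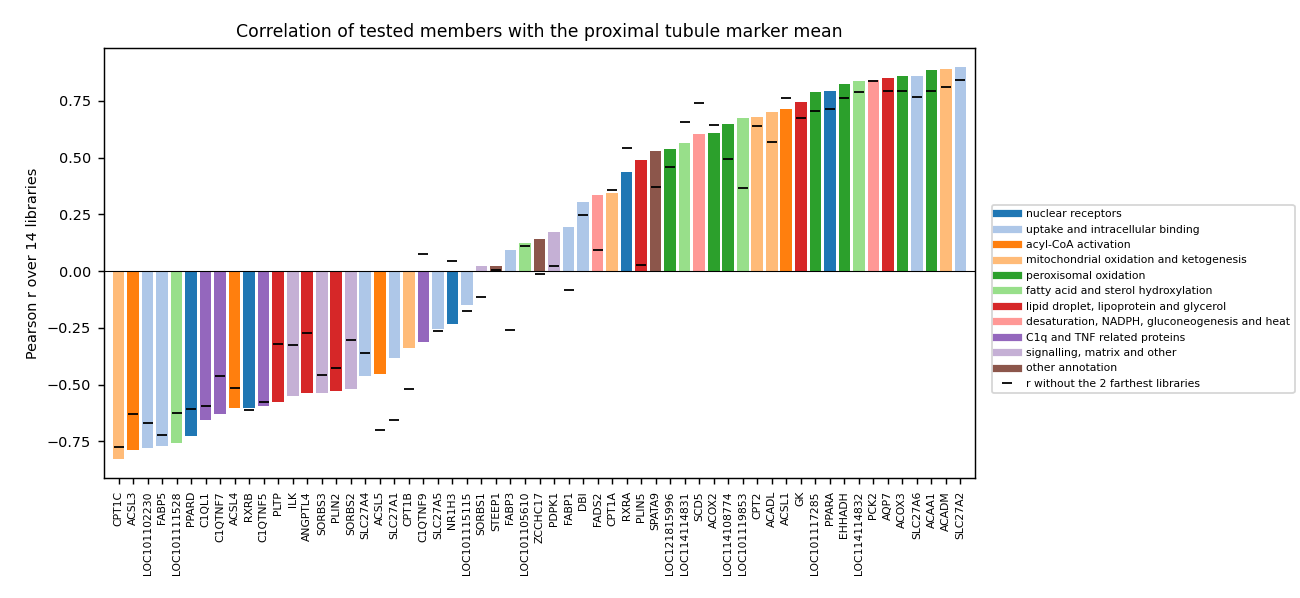
Pearson r of 59 of the 61 tested members with the proximal tubule marker mean over 14 libraries, as bars ordered by r and coloured by role, with a short black line for r without the 2 farthest libraries. All bars of peroxisomal genes lie above 0.5, with lines just below it for LOC121815996 (0.460) and LOC114108774 (0.493), and CPT1C, at -0.826, is the lowest bar.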

How the data were processed

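RNA of 15 sheep kidney samples was sequenced. According to the methods and the submitters' processing notes, the authors trimmed reads with cutadapt 1.9, aligned them with HISAT2 2.2.1 and assembled transcripts with StringTie 2.1.6. Of the counting tool, its strand setting and the build of the genome, none is named in the sources used here. The deposited table holds a read count and an FPKM value per gene and library for 25592 genes, with the authors' gene descriptions and pathway entries. The deposited counts, 50255295 to 68747047 per library, were used as they are, and their number limits precision for weak genes. The FPKM values, normalized by the authors to gene length and library size, gave the levels. Doses, age and day come from the methods, and groups from the sample titles. Coordinates are those of the file.

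Genes with at least 1 FPKM in at least 4 of 14 libraries (13394) were tested with edgeR 4.0.16 (quasi-likelihood test, TMM normalization, group as the only term, limma 3.58.1 and DESeq2 1.42.0 as alternatives, R 4.3.3). AFB1 replicate 1 was kept out and added back as an alternative. A call needed a fold change over 1.5 together with an unadjusted p under 0.05, and Benjamini-Hochberg adjustment ran over all tested genes. Correlations used log2(FPKM + 1) and 100000 two-sided permutations (Python 3.11.15, NumPy 2.4.6). An adjusted permutation p belongs to Pearson r unless it is given for the rank correlation. Of the 9 proximal tubule markers chosen, 8 were used here, and of 9 hepatocyte markers 8. The scripts were tested on simulated data. The other alternatives were a fit on the compared groups only, other size factors, no filter, a pseudocount of 0.1, the replicate number as a block and each library left out.

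Members and gene lists were chosen with earlier results of these data known. Members were named by rule if they were called, among the 7 receptors, among the 10 with the highest CON median or the smallest p of a comparison. The rule also took the 5 most variable members and the 5 highest and 5 lowest in AFB1 replicate 1 against the others. Many of these are given in every library, and some, such as PPARG, NR1H3, FABP1 and SCD5, only as ranges or single values. Other members with a value of their own in a comparison or correlation were taken up after their values were seen. Of the tested members, 2 that enter the counts are not reported here. No sequences are shown.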

Additional observations from a re-analysis of the deposited data

Results flagged for a closer look

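Within groups of 4 or 5 libraries, 9 of 98 sets of FPKM values held a library far from the rest by Dixon's criterion. Chance gives about 1 in 20 for sets not picked for their spread, and some of these members were named because they varied most. AFB1 replicate 5 was high for LOC101117285 (267, next 106), LOC114108774 (34.9, next 6.54) and LOC114114832 (253, next 85.6) and low for RXRB (10.8, next 13.7). CON replicate 5 was high for LOC114114832 (256, next 154) and SLC27A2 (234, next 88.3). The others were ACSL4 in CON replicate 2 (3.44, next 2.79), NR1H3 as lowest in AFB1 replicate 2 (8.61, next 11.2) and RXRG in AFB1 replicate 3 (0.0621, the other AFB1 libraries at 0).

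AFB1 replicate 1, which entered no comparison, held 30 of the 93 members above the highest of the other 14 libraries and 30 below the lowest. Of the tested members 39.3% were above and 34.4% below, against 9.62% and 61.3% of all tested genes. Listed here are the 5 farthest above the median of the 14 on the log2(FPKM + 1) scale. APOA5 was at 678 FPKM (highest elsewhere 0.352), FABP1 at 295 (4.84), LOC101111528 at 270 (13.8), SLC27A5 at 255 (8.59) and LOC101114861 at 62.1 (0.356). The hepatocyte marker mean of that library was 10.79 and its proximal tubule marker mean 1.15, and their part in these levels was not tested.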

How the results depend on the processing

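The counts of called members were small and moved with the settings. AFB1 against CON gave 2 called members, and 8 with all 15 libraries (7 higher, 1 lower), 7 with no filter, 3 with DESeq2, 1 with DESeq2's size factors in edgeR and 1 with limma at either pseudocount. AFB1_CUR against AFB1 gave 0, and 8 with all 15 libraries, 2 with DESeq2, 2 with no filter and 1 with limma at a pseudocount of 0.1. AFB1_CUR against CON gave 1, and 0 with all 15 libraries, 2 with DESeq2, 2 with only the groups compared and 3 with no filter. Leaving out 1 library gave 0 to 8, 0 to 3 and 0 to 3. The cause of these moves was not tested, apart from the number of genes and libraries that each setting changes.

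Over all genes the 238, 133 and 235 calls became 652, 533 and 145 with all 15 libraries, 867, 707 and 928 with no filter and 108, 86 and 82 with limma at a pseudocount of 1. Without AFB1 replicate 5 they were 470, 234 and 254, and without AFB1 replicate 2 the middle one was 288. Without AFB1_CUR replicate 2 they were 312, 217 and 131, and the last turned from 150 higher and 85 lower to 50 higher and 81 lower in AFB1_CUR. With all 15 libraries 78.4% of the calls between AFB1 and CON were higher in AFB1, against 37.8%, and 15.9% of those between AFB1_CUR and AFB1 were higher, against 45.1%. With limma at 0.1 the last share was 57.2% (83 higher, 62 lower).

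Fold changes of 25 member results were recomputed, which leave out PPARA and PPARD among others. Of these 25, reversals were seen with all 15 libraries and in no other setting run, in AFB1 against CON to 2.86 for LOC101119853, 0.56 for PLIN5, 0.0456 for RXRA and 4.16 for SLC27A5, and in AFB1_CUR against AFB1 to -4.14 for SLC27A5. Of 550 recomputed values, 499 kept their direction and side of the threshold. The number of members with r beyond 0.5 in either direction, 40, was 31 to 43 when 1 library was left out and 32 with all 15. In that last setting r changed sign for 35 of the 61 members and for 25 of those 40, among them ACSL3 (0.688), AQP7 (-0.421), CPT1C (0.216) and CPT2 (-0.573). Of 19 correlations recomputed under each setting, 11 were reversed in it, to 0.754 for ACSL4, 0.679 for C1QTNF5, 0.287 for FABP5, -0.301 for LOC101117285, -0.793 for LOC101119853, -0.235 for LOC114108774, -0.305 for LOC114114831, -0.102 for PCK2, 0.626 for PPARD, 0.268 for RXRB and -0.154 for SLC27A2.

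The labels do not say whether replicate numbers pair the libraries, and the correlations here do not settle it. Of 13 pairs with the same number, 6 had deviations correlated above 0.1 (-0.301 to 0.595), and 4 of 14 libraries matched their own number best. With the replicate number as a block, the called members were 4, 1 and 3, and the calls over all 13394 genes 239, 158 and 300. In AFB1 against CON, LOC101119853 lost its call under the block (log2 fold change -0.87, unadjusted p = 0.0675 in edgeR's model), while ACAA1, SLC27A5 and LOC114114832 gained one. In AFB1_CUR against AFB1 the 1 called member was SLC27A5 (log2 fold change 0.63, unadjusted p = 0.0228 in edgeR's model). In AFB1_CUR against CON the 3 were ACAA1, LOC101102230 and LOC101119853.

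Depth limits members such as RXRG, with 0 to 12 counts. Group size, 4 or 5 libraries, limits the rest, and genes with copies of the same description or overlapping neighbours remain uncertain.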
